A study of Mus musculus with 15 samples.

Results

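The angiopoietin and Tie receptor axis was followed through 6 genes, chosen by name out of the 53465 genes of the table. They are the ligand genes Angpt1, Angpt2 and Angpt4, the receptor genes Tek (which encodes Tie2) and Tie1, and Ptprb, which encodes the vascular endothelial protein tyrosine phosphatase VE-PTP. All 6 passed the filter on low values, which 25549 genes passed. The cells came from tumors grown in CAG-GFP mice, which carry GFP in all tissues, after injection of B16-F0 cells, a mouse melanoma line. Tumors were taken on day 15, and GFP positive cells that lacked lineage markers and bore CD34 were sorted by CD31 and VEGFR2. Endovascular progenitors (EVP) were low for both, transit amplifying cells (TA) were intermediate for CD31 and low for VEGFR2, and definitive differentiated cells (D) were high for both. Each population had 5 libraries. The mice of the study were of both sexes and 8 to 14 weeks old. The labels do not say whether replicates came from separate mice, so p-values measure the spread between these libraries, which may be partly technical.

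Tie2 is a receptor tyrosine kinase of endothelial cells. Angiopoietin-1, made mainly by perivascular and mesenchymal cells, activates it and keeps vessels quiet and tight, whereas angiopoietin-2, released by activated endothelium, acts as a weak agonist or an antagonist depending on the setting. Angiopoietin-4 is a further Tie2 ligand. Tie1 binds no angiopoietin by itself with high affinity, but pairs with Tie2 at the cell surface and modulates its signal, and VE-PTP removes phosphate from Tie2. In most vessels Tek and Tie1 are both regarded as endothelial genes, so the question put to the data was where Tek departs from Tie1.

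The libraries held 5394356 to 26513073 reads on genes (median 19049194). Values are normalized counts, that is, reads divided by a size factor per library. A count of 3 reads, taken as the limit of detection, equalled 1.81 to 10.5 normalized counts, and covers counting error only. The libraries numbered replicate 1 stood apart. In them 81.6% to 98.3% of 1106 olfactory receptor genes had a read, against 2.89% to 71.0% in the others, so the counts of members called are also given without these 3 libraries. The median olfactory receptor gene held 87.8 normalized counts in EVP replicate 1, 13.8 in TA replicate 1 and 12.4 in D replicate 1. Tie1 (52.7) and Cdh5 (49.2) in EVP replicate 1 lay below that median. The limit of 3 reads thus understates the background in this library. A list of 10 pan-endothelial marker genes was used to check the labels. For 2 of them, Pecam1 and Kdr, which encode CD31 and VEGFR2, the check is not independent of the sort. The summed normalized counts of the 10 were 124784 to 206544 in D, 8499 to 89825 in TA and 600 to 5131 in EVP, with 8 to 10 of the 10 above the limit in each EVP library. Sums of 8 fibroblast marker genes ran the other way, from 840558 to 1494780 in EVP, 190986 to 606223 in TA and 979 to 4065 in D. The EVP libraries thus held the endothelial markers at low level and the fibroblast markers at high level. The part of cells of other types in the results was not tested, and in such bulk samples fewer cells of a type and less RNA per cell cannot be told apart.

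The transcripts of the axis fell into 3 patterns. Tie1, Ptprb and Angpt2 were low in EVP, intermediate in TA and high in D. Angpt1 and Angpt4 had higher means in EVP and TA than in D, where Angpt4 was at or under the limit of detection in 4 of 5 libraries and Angpt1 in 1 of 5. Tek followed neither course, with its lowest mean in TA and a difference between EVP and D that did not pass the test. Populations were compared with limma on log2(normalized count + 1), with an adjusted p under 0.05 over all tested genes as the threshold.

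**Figure D1:**
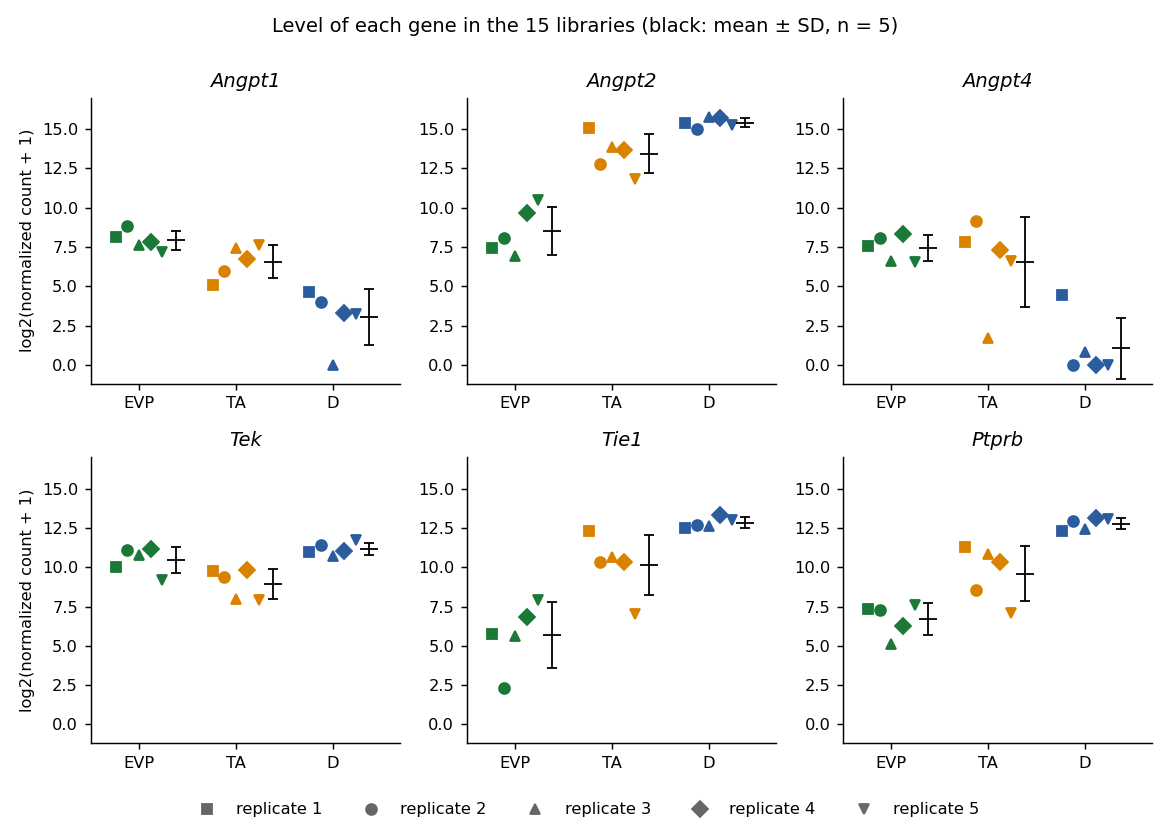
Levels of the 6 genes in the 15 libraries. The vertical axis is log2(normalized count + 1), colors mark EVP, TA and D, marker shapes mark the replicate number, and black bars are the mean ± SD of 5 libraries. Tie1 and Ptprb do not overlap between EVP and D, while Tek overlaps between them and dips in TA.

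Angpt1 lies on chromosome 15 of GRCm38 (42424723 to 42676977, minus strand). Its counts were 284, 448, 194, 227 and 147 in EVP replicates 1 to 5, 32.7, 60.7, 173, 105 and 193 in TA, and 23.3, 14.7, 0, 9.01 and 8.46 in D. Both EVP and TA lay wholly above D, and EVP and TA overlapped. The mean was 260 ± 117 in EVP (SD, n = 5), 113 ± 69.4 in TA and 11.1 ± 8.62 in D, so EVP held 23.4-fold and TA 10.2-fold more than D. The log2 difference of EVP minus D was 4.89 with a standard error of 0.73 and an adjusted p of 7.14e-05 in limma. Between TA and D it was 3.53 with an adjusted p of 0.00318. Between EVP and TA it was 1.36, which did not pass (adjusted p = 0.404). Quantile normalization took the TA against D difference to 2.44 with an adjusted p of 0.0764. The gene shares 737 exonic bases with the antisense gene Gm17473, whose normalized counts ranged from 0 to 211 in EVP, 0.88 to 81.0 in TA and 0 to 13.7 in D. The library kit does not mark strand, so reads from the shared bases cannot be assigned between the 2 genes.

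Angpt2 lies on chromosome 8 (18690263 to 18741562, minus strand), inside the oppositely oriented gene Mcph1 but sharing no exon with it. Its counts were 169, 273, 123, 823 and 1433 in EVP replicates 1 to 5, 35065, 6889, 15104, 12995 and 3650 in TA, and 43002, 32992, 54876, 52774 and 38673 in D. No EVP library reached the lowest TA or D value, and TA replicate 1 lay within the range of D. Means were 564 ± 561 in EVP (SD, n = 5), 14741 ± 12256 in TA and 44463 ± 9284 in D. D thus held 78.8-fold and TA 26.1-fold more than EVP. In limma the EVP against D log2 difference was -6.89 (standard error 0.61, adjusted p = 2.68e-07), and the EVP against TA difference was -4.92 (adjusted p = 7.81e-04). The TA against D difference of -1.97 passed narrowly (adjusted p = 0.0429). It no longer passed when any of 10 single libraries was left out, among them TA replicate 5 (-1.57, adjusted p = 0.113), or with the edgeR test on whole reads (-1.67, adjusted p = 0.132). Per kilobase of exon, the D mean of 12050 normalized counts put Angpt2 at percentile 99.9 of tested genes in that population.

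Angpt4 lies on chromosome 2 (151911210 to 151945337, plus strand). Its counts were 190, 264, 94.9, 325 and 92.0 in EVP replicates 1 to 5, 228, 580, 2.23, 157 and 97.1 in TA, and 20.6, 0, 0.78, 0 and 0 in D. The other 4 D libraries were at or under the limit of 3 reads, the D signal coming from replicate 1 with its 15 reads. TA replicate 3 held 2 reads and was the single TA library within the range of D. Means were 193 ± 103 in EVP (SD, n = 5), 213 ± 221 in TA and 4.28 ± 9.13 in D, so EVP held 45.2-fold more than D. Without D replicate 1, the EVP mean was at least 87.2-fold and the TA mean at least 96.1-fold higher than the mean limit of detection of the other 4 D libraries. The log2 fold change in limma was 6.37 between EVP and D (standard error 1.15, adjusted p = 5.05e-04) and 5.47 between TA and D (adjusted p = 0.00364). EVP and TA overlapped, with a difference of 0.89 (adjusted p = 0.863) whose sign turned to -0.32 without TA replicate 3.

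The 3 ligand genes thus moved in opposite directions across the populations, and their balance was followed as the ratio of Angpt2 to Angpt1 within each library. The plain ratio does not depend on the size factor. The tested log2 ratio, with 1 added to each normalized count, does depend on it where counts are low. Per kilobase of exon this ratio was 0.836, 0.860, 0.893, 5.12 and 13.8 in EVP replicates 1 to 5, 1510, 160, 123, 175 and 26.7 in TA, and 2599, 3167, at least 33009, 8258 and 6447 in D. The bound stands for D replicate 3, which held no Angpt1 read. The 3 populations did not overlap in any pair. The mean log2 ratio, from log2(normalized count + 1) without the length correction, was 0.60 in EVP, 6.89 in TA and 12.39 in D. D replicate 3, with no Angpt1 read, entered this mean at 15.74. With 0.5 or 8 added in place of 1, the EVP against D difference was -12.03 or -10.70. The differences of -11.78, -6.28 and -5.50 for EVP against D, EVP against TA and TA against D each gave p = 0.00794 in the exact permutation test, two-sided, which is the smallest value that 5 libraries against 5 allow (adjusted p = 0.0170 over 15 ratio tests). For EVP against D this outcome was fixed beforehand, as Angpt2 and Angpt1 each separated these populations in opposite directions. For EVP against TA and TA against D, the ranges of the single genes likewise left the ratios no room to overlap. These p-values therefore add nothing to the results of the single genes. Without the replicate 1 libraries the 3 differences were -11.84, -5.16 and -6.68 (adjusted p = 0.0612 in the exact permutation test).

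Tek lies on chromosome 4 (94739289 to 94874976, plus strand). Its counts were 1053, 2193, 1723, 2335 and 585 in EVP replicates 1 to 5, 851, 652, 251, 924 and 237 in TA, and 1967, 2763, 1689, 2104 and 3373 in D. All TA libraries lay below all D libraries, and EVP overlapped both, its lowest value being replicate 5. Means were 1578 ± 747 in EVP (SD, n = 5), 583 ± 325 in TA and 2379 ± 681 in D. D held 4.08-fold more than TA, and the log2 difference of TA minus D in limma was -2.21 with a standard error of 0.43 and an adjusted p of 0.00199. D exceeded EVP by 1.51-fold, and the log2 difference of -0.72 (standard error 0.43) did not pass (adjusted p = 0.322), nor did it under any of 27 alternative settings, where the adjusted p ran from 0.135 to 0.587. EVP held 2.71-fold more than TA and was the higher in 22 of 25 pairings of an EVP with a TA library. That difference of 1.49 did not pass in limma (adjusted p = 0.0660). It passed without EVP replicate 5 (1.81, adjusted p = 0.0188), without TA replicate 4 (1.72, adjusted p = 0.0466) and in DESeq2 (1.44, adjusted p = 0.0120), among 6 of 27 settings with adjusted p values from 0.0120 to 0.180. The order D, EVP, TA for Tek was therefore resolved between D and TA and not between D and EVP.

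Tie1 lies on the same chromosome (118471191 to 118490061, minus strand). Its counts were 52.7, 3.92, 49.1, 115 and 236 in EVP replicates 1 to 5, 5076, 1298, 1642, 1298 and 129 in TA, and 5899, 6714, 6220, 10418 and 8072 in D. EVP replicate 2 held 3 reads of Tie1 beside 2193 normalized counts of Tek, and TA replicate 5 was the single TA library within the EVP range. Means were 91.3 ± 89.9 in EVP (SD, n = 5), 1889 ± 1872 in TA and 7465 ± 1848 in D. D held 81.8-fold and TA 20.7-fold more than EVP. The log2 differences in limma were -7.15 between EVP and D (standard error 0.89, adjusted p = 1.13e-05) and -4.45 between EVP and TA (adjusted p = 0.0106). With all replicate 1 libraries left out, the second was -3.92 with an adjusted p of 0.119. TA lay wholly below D, yet the difference of -2.69 did not pass (adjusted p = 0.0581), and it did pass without EVP replicate 2 (adjusted p = 0.0171), without EVP replicate 5 (0.0449), without TA replicate 1 (-3.24, 0.0205) and in 5 further of 27 settings.

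Tek therefore departed from Tie1 in EVP. Per kilobase of exon, the Tek to Tie1 ratio was 20.9, 584, 36.6, 21.2 and 2.59 in EVP replicates 1 to 5, 0.175, 0.524, 0.160, 0.742 and 1.92 in TA, and 0.348, 0.429, 0.283, 0.211 and 0.436 in D. The value of 584 rests on the 3 Tie1 reads of replicate 2 and has a 95% exact counting interval of 199 to 2835. The value of 20.9 rests on 15 Tie1 reads of replicate 1, where Tie1 lay below the median olfactory receptor gene. Every EVP library was above every TA and D library, and Tie1 exceeded Tek in 9 of the 10 TA and D libraries. The mean log2 ratio was 4.77 ± 2.68 in EVP (SD, n = 5), -1.18 ± 1.5 in TA and -1.66 ± 0.44 in D. EVP exceeded D by 6.43 and TA by 5.95 on the log2 scale (exact permutation test, two-sided, p = 0.00794 for each, adjusted p = 0.0170). For EVP against D this separation followed from the ranges of the single genes. In EVP, Tek was at least 585 and Tie1 at most 236 normalized counts. In D, Tek was at most 3373 and Tie1 at least 5899. That p-value therefore adds nothing to those ranges. TA and D differed by 0.48 (exact permutation p = 0.540, adjusted p = 0.623). The log2 ratio ran from -2.70 to 0.87 in TA and from -2.31 to -1.26 in D. Leaving out TA replicate 5 brought this difference to -0.028. Without the replicate 1 libraries EVP exceeded D by 6.57 and TA by 5.71 (adjusted p = 0.0612 in the exact permutation test of 4 libraries against 4), still without overlap.

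**Figure D2:**
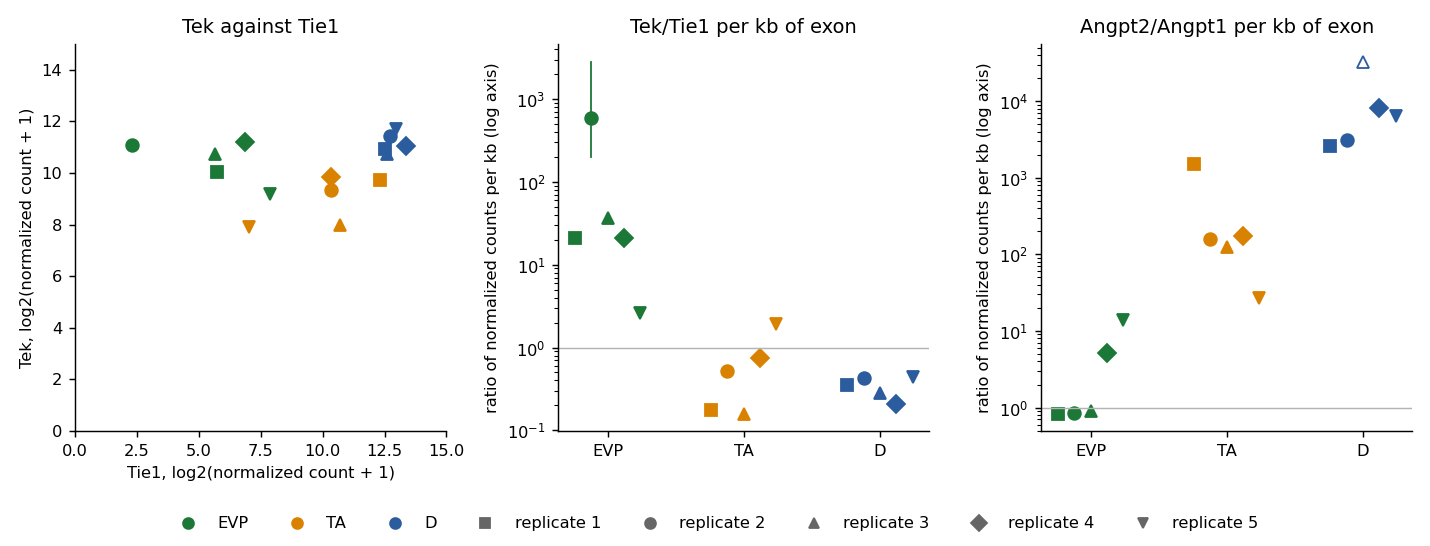
Left, Tek against Tie1 in each library, both as log2(normalized count + 1). Middle and right, the Tek to Tie1 and Angpt2 to Angpt1 ratios of normalized counts per kilobase of exon on log axes, with a grey line at equal levels. The vertical line on EVP replicate 2 is its counting interval of 199 to 2835, and the open symbol in D is a lower bound of 33009. EVP stands apart from TA and D in both ratios.

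Cdh5, which encodes VE-cadherin, served as a second endothelial reference. Its normalized counts ranged from 18.3 to 183 in EVP, 138 to 7680 in TA and 7196 to 13383 in D. The mean of Cdh5 was 136-fold higher in D than in EVP, and that of Tie1 81.8-fold. The Tek to Cdh5 ratio is therefore not independent of the Tek to Tie1 ratio. The log2 ratio of Tek to Cdh5 was higher in EVP than in D by 6.82 and than in TA by 6.39, without overlap (exact permutation test, p = 0.00794, adjusted p = 0.0170). For EVP against D this separation too followed from the ranges of the single genes, and that p-value adds nothing to them. The log2 ratio of Tie1 to Cdh5 differed by 0.39 between EVP and D (exact permutation p = 0.532, adjusted p = 0.623) and by 0.45 between EVP and TA (exact permutation p = 0.452, adjusted p = 0.617). Without EVP replicate 2, the library with 3 Tie1 reads, these became 0.88 and 0.94 with an adjusted p of 0.0265 each. The call on the Tie1 to Cdh5 ratio thus turned on this library.

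The promoter sequences of Tek and Angpt4, the 2 members of the RefSeq table with high counts in EVP, are shown to set their letters beside these levels. Of the 6 genes, 3 had an entry, the other being Tie1. The 250 bases before each start are given for GRCm38.p6, Tek at chr4:94739039-94739288 and Angpt4 at chr2:151910957-151911206, both on the plus strand. Both strands were searched for GGAAG, which ETS factors prefer, AGATAA for the Gata family, ATTGTT for SOX, CCACACCC for KLF and TGTTTAC for FOX factors, and matches are in capitals.
Tek: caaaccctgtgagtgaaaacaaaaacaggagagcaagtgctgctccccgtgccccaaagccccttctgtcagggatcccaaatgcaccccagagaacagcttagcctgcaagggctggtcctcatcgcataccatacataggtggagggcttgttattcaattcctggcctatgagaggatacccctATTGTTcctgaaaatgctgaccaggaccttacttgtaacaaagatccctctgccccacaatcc
Angpt4: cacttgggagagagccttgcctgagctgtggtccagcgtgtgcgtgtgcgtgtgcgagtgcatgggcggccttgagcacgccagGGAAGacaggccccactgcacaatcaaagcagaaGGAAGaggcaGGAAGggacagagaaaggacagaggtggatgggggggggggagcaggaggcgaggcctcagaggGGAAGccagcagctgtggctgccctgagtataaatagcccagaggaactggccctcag
Tek held a single match, ATTGTT, 63 bases before the start, and no GGAAG. Angpt4 held 4 matches to GGAAG. The window of Tie1 held 6 matches to GGAAG and 1 to CCACACCC, and is not printed because it lies mostly within the first exon of a longer annotated transcript. Of 32851 promoters, 64.1% held the ETS letters, 9.99% those of the Gata family, 9.42% those of SOX, 3.20% those of KLF and 3.17% those of FOX factors. A match describes letters and is not a bound site.

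Ptprb lies on chromosome 10 (116275523 to 116389535, plus strand). Its counts were 162, 153, 34.4, 75.1 and 193 in EVP replicates 1 to 5, 2473, 367, 1803, 1283 and 133 in TA, and 5106, 7778, 5605, 8934 and 8623 in D. All EVP and TA libraries lay below all D libraries, and TA replicate 5 lay within the EVP range, as it did for Tie1. Means were 123 ± 66.0 in EVP (SD, n = 5), 1212 ± 978 in TA and 7209 ± 1753 in D, a 58.4-fold excess of D over EVP. The log2 differences in limma were -6.06 between EVP and D (standard error 0.65, adjusted p = 2.05e-06), -3.18 between TA and D (adjusted p = 0.00301) and -2.88 between EVP and TA (adjusted p = 0.0196). The last no longer passed without EVP replicate 3 (-2.49, adjusted p = 0.0588), TA replicate 1 (-2.46, 0.0524) or TA replicate 3 (-2.58, 0.0593). The log2 ratio of Ptprb to Tie1 differed by 1.09 between EVP and D, 1.57 between EVP and TA and -0.48 between TA and D, and none passed the exact permutation test (adjusted p = 0.617, 0.387 and 0.617).

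**Figure D3:**
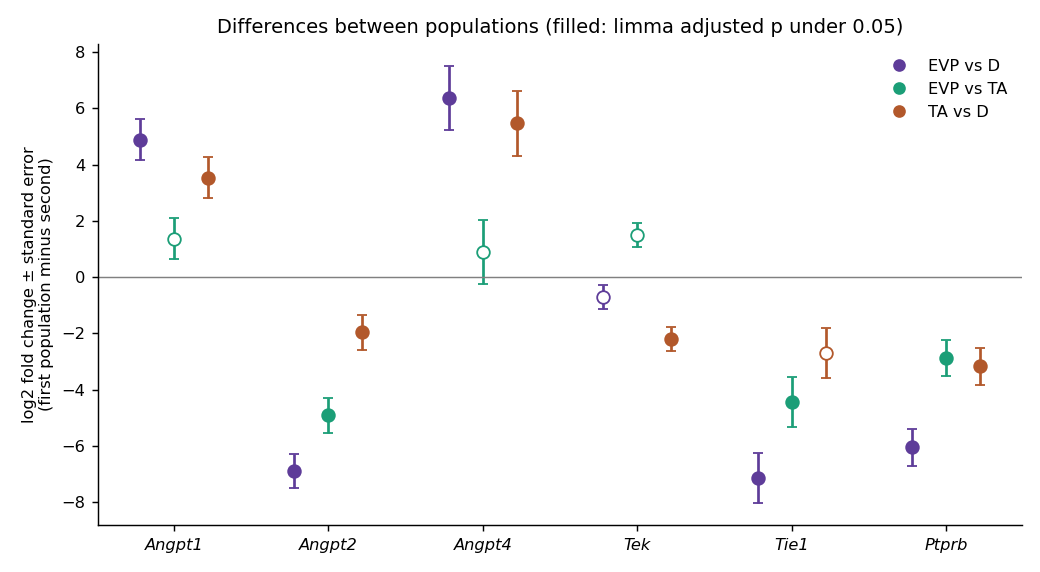
Log2 fold change ± standard error of each gene in the 3 comparisons, first population minus second, from limma. Filled symbols have an adjusted p under 0.05. Tek is filled for TA against D, and its EVP against D value of -0.72 is open, whereas Tie1, Angpt2 and Ptprb lie at or below -6.06 for EVP against D.

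In counts, 5 of the 6 genes differed between EVP and D, 2 of them higher in EVP and 3 higher in D. The background over all tested genes was 11.6% called towards EVP and 7.46% towards D. The libraries of the 5 did not overlap, against 17.7% of all genes. Between EVP and TA, limma called Angpt2, Tie1 and Ptprb higher in TA and 0 members higher in EVP, where 1.94% and 1.56% of all genes were called in those directions. Tek, with an unadjusted p of 0.00276, was the 1 member higher in EVP at an unadjusted p under 0.05, and edgeR called 0 and DESeq2 1 in that direction. Angpt2 was the member without overlap, against 4.29% of genes. Between TA and D, Angpt1 and Angpt4 were higher in TA and Tek, Angpt2 and Ptprb higher in D, against 8.21% and 4.31% of all genes. For 4 members the libraries did not overlap, against 9.25%. The 3 comparisons share libraries and are not independent of each other. Without replicate 1 of every population, 5, 1 and 5 members were called, and Angpt2 was the one left between EVP and TA, where the calls over all 25549 genes also fell, from 893 to 104. Calls lost between EVP and TA in the lists that follow stand beside the same fall. The median log2 difference over all tested genes was 0.46 for EVP against D, 0.24 for TA against D and 0.085 for EVP against TA. The first was 0.048 after quantile normalization and 0.0012 without EVP replicate 1. The value of 0.46, set beside the list medians that follow, thus depends on that library.

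Within a population, levels can be compared between genes per kilobase of exon. In EVP the mean normalized count per kilobase was 335 ± 159 for Tek (SD, n = 5), 153 ± 152 for Angpt2, 82.7 ± 44.1 for Angpt4, 49.9 ± 22.4 for Angpt1, 18.6 ± 18.3 for Tie1 and 9.25 ± 4.95 for Ptprb. Tek was thus at percentile 89.6 of tested genes and Tie1 at percentile 43.4. In D the order was Angpt2 with 12050 ± 2516, Tie1 with 1518 ± 376, Ptprb with 541 ± 132 and Tek with 505 ± 145, followed by Angpt1 with 2.13 ± 1.66 and Angpt4 with 1.83 ± 3.91. Ptprb and Tek in D differed by less than their SDs, as did Angpt1 and Angpt4. In TA, Angpt2 led with 3995 ± 3322, Tie1 held 384 ± 381, Tek 124 ± 69.0, Angpt4 91.2 ± 94.8, Ptprb 90.9 ± 73.3 and Angpt1 21.7 ± 13.3. There all neighbours in this order below Angpt2 differed by less than the larger of their SDs. The same held in EVP for Angpt2 and Angpt4, Angpt4 and Angpt1, and Tie1 and Ptprb.

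Across the 15 libraries the members also sorted by pattern, given here as Pearson correlations of log2 values without a test, since libraries share population, depth and replicate number. Tie1 correlated with Angpt2 at 0.94 and with Ptprb at 0.90. Tie1 and Tek correlated at 0.14, and 6583 tested genes were more like Tek than Tie1 was. The 5 genes most like Tek were Atrnl1, Pdgfd, Npr1, Rnf213 and Ly6e, with correlations of 0.90 to 0.91. Those most like Tie1 were Fam167b, Mmrn2, C1qtnf9, Robo4 and Grrp1, all at 0.99, and those most like Angpt2 were Sh2d3c, Pdgfb, Mest, Flt1 and Hlx, at 0.98 to 1.00. For Ptprb they were Exoc3l2, Kctd12b, Cdc14a, Mall and Cyyr1, at 0.98 to 0.99. For Angpt1 they were Ebf2, Arhgap42, Agtr1a, Galnt16 and Ptgfrn, all at 0.97, and for Angpt4 they were Npy1r, Draxin, Fam110c, 2810433D01Rik and Akr1c18, at 0.96 to 0.98.

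Of 20 genes for Tie ligands, adaptors and effectors, 2 were higher in EVP than in D and 5 were lower, beside 11.6% and 7.46% of all genes in those directions, with a median log2 difference of -0.19 beside 0.46 over all genes. Without the replicate 1 libraries 3 were higher in EVP and 5 lower. Svep1, a matrix protein that binds Tie1, had a mean of 3058 ± 1318 normalized counts in EVP (SD, n = 5), 618 ± 237 in TA and 14.1 ± 28.9 in D, where 4 of 5 libraries were at or under the limit of detection. Its EVP against D difference was 9.41 (adjusted p = 2.24e-07 in limma), opposite in sign to that of Tie1. Akt2, a kinase downstream of Tie2, was also higher in EVP, by 2.59. Cdh5 (-7.54), the transcription factor gene Foxo1 (-1.67), the integrin gene Itgb1 (-1.18), the adaptor gene Nck1 (-1.0) and the kinase gene Akt1 (-0.63) were higher in D. Foxo1, whose product is held out of the nucleus when Tie2 signals and which drives Angpt2 transcription, averaged 238 ± 97.4 normalized counts in EVP, 228 ± 131 in TA and 734 ± 250 in D. Between EVP and TA, limma called Cdh5 higher in TA and 0 of the 20 higher in EVP, beside 1.94% and 1.56% of all genes. Towards EVP 3 had an unadjusted p under 0.05, edgeR called 0 and DESeq2 called 1. Cdh5 was not called there without the replicate 1 libraries. Between TA and D, Svep1, Akt2 and the adaptor gene Grb7 were higher in TA, and Cdh5, Foxo1, Nck1, Itgb1 and Itga5 higher in D, beside 8.21% and 4.31% of all genes. There edgeR called 2 higher in D in place of 5, and without the replicate 1 libraries limma called 4 higher in TA and 5 higher in D.

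Of 7 angiopoietin-like genes, which encode related secreted proteins that do not bind Tie2, 3 were higher in EVP than in D, beside 11.6% of all genes, with a median difference of 2.61 beside 0.46. None was lower in limma, edgeR or DESeq2, at an unadjusted p under 0.05 either (0 of 7). Angptl2 averaged 6437 ± 1453 normalized counts in EVP (SD, n = 5), 3762 ± 3172 in TA and 151 ± 78.7 in D, a difference of 5.77 between EVP and D (adjusted p = 1.69e-06 in limma). Angptl1 (5.75) and Angptl8 (2.79) were the others. Angptl4, a regulator of lipoprotein lipase, was abundant in all populations, with means of 10090 ± 2315, 6421 ± 1320 and 8194 ± 2329 in EVP, TA and D, and was called in no comparison by limma. Between EVP and TA 0 of the 7 passed in limma or edgeR and 1, Angptl4, in DESeq2, and in limma Angptl1 and Angptl4 had an unadjusted p under 0.05. Between TA and D, Angptl1 and Angptl2 were higher in TA, beside 8.21% of all genes. Without the replicate 1 libraries 4 of the 7 were higher in EVP than in D and 3 higher in TA than in D.

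Of 6 other receptor-type phosphatase genes, 5 were tested, Ptprh being too low. Ptpre, Ptprm and Ptprk were higher in D than in EVP, by differences of -3.51, -3.30 and -3.05, as Ptprb was, whereas Ptprj was higher in EVP by 3.15 (adjusted p = 6.32e-04 in limma), beside 7.46% and 11.6% of all genes in those directions. Ptprm, an adhesion phosphatase of endothelial contacts, averaged 519 ± 195 normalized counts in EVP (SD, n = 5), 1794 ± 1065 in TA and 4825 ± 294 in D. Ptprj averaged 254 ± 101, 95.8 ± 60.5 and 37.8 ± 41.4. Between EVP and TA, Ptpre and Ptprm were higher in TA, beside 1.94% of all genes, and neither was called there without the replicate 1 libraries. Between TA and D, Ptpre, Ptprm and Ptprk were higher in D, beside 4.31% of all genes.

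**Figure D4:**
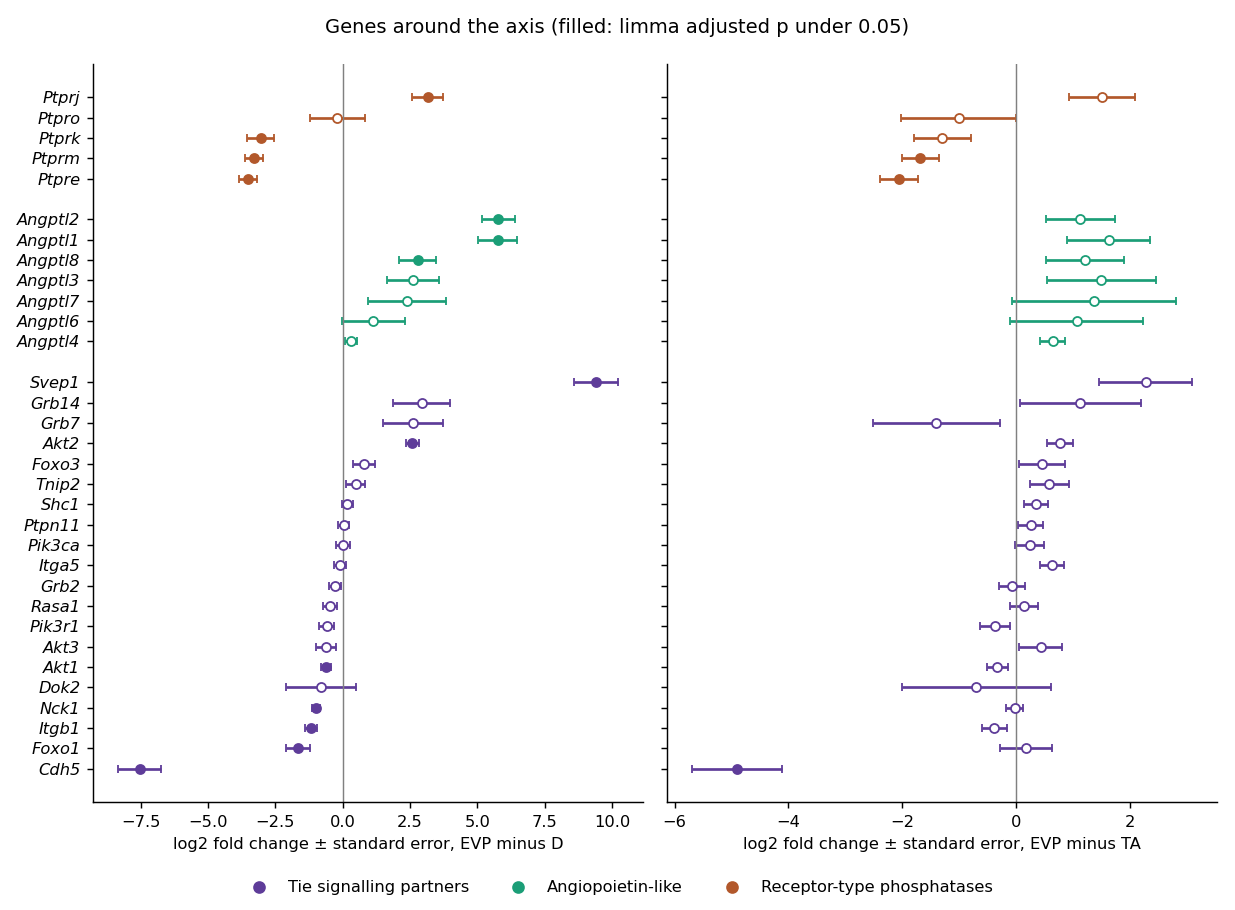
Log2 fold change ± standard error in limma of the tested genes of the 3 pathway lists, for EVP minus D on the left and EVP minus TA on the right. Colors mark the lists and filled symbols an adjusted p under 0.05. Svep1 reaches 9.41 and Cdh5 -7.54 on the left, with most Tie signalling partners between -2 and 3.

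Markers of cell types were set beside these groups, and not all lists followed them. Over all genes, limma called 11.6% higher in EVP than in D and 7.46% higher in D. Between EVP and TA the shares were 1.56% towards EVP and 1.94% towards TA. Between TA and D they were 8.21% towards TA and 4.31% towards D. D exceeded EVP in all 10 pan-endothelial genes, among them Pecam1 and Kdr, whose products were used in the sort. Of the 10, 9 were higher in TA than in EVP and 7 higher in D than in TA, where edgeR called 3 and limma 6 without the replicate 1 libraries. All 8 fibroblast genes were higher in EVP and in TA than in D, and 5 were higher in EVP than in TA. Without the replicate 1 libraries, 1 pan-endothelial and 0 fibroblast genes were called between EVP and TA in limma, with 10 and 6 at an unadjusted p under 0.05, and the other counts of called fibroblast genes and that between EVP and D for endothelial genes were as before. With all libraries, edgeR and DESeq2 called 2 and 7 fibroblast genes between EVP and TA. Sums over 10 mural genes were 7449 to 34637 in EVP, 6231 to 157242 in TA and 5227 to 10913 in D. Of the 10, 4 (Pdgfrb, Cspg4, Notch3 and Acta2) were higher in EVP than in D and 2 (Abcc9 and Kcnj8) higher in D. Between TA and D 6 were higher in TA. Abcc9 and Kcnj8 were higher in TA than in EVP, where 0 mural genes were called without the replicate 1 libraries. Sums over 7 leukocyte genes were 1939 to 10364 in EVP, 6681 to 37860 in TA and 3050 to 9708 in D, and 4 were higher in TA than in EVP, with 0 called by edgeR, 4 by DESeq2 and 0 by limma without the replicate 1 libraries. Sums over 6 melanoma genes were 29156 to 66912 in EVP, 68700 to 175253 in TA and 18070 to 47750 in D, all 6 being higher in TA than in D, and 5 without the replicate 1 libraries. Between EVP and D 0 were called in limma (3 at an unadjusted p under 0.05), 0 in edgeR and 1 in DESeq2. The part of these cells in the levels of the 6 genes was not tested.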

How the data were processed

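The 15 libraries, 5 each of EVP, TA and D cells, were made by the authors with a modified Smart-Seq2 protocol, which does not mark strand. Reads were aligned with STAR 2.5.3a to GRCm38 and counted per gene with HTSeq-count, and the strand setting is not given in the sources used here. The deposited values are signal values, gene counts divided by the authors by DESeq2 1.10.1 size factors. Dividing each library by its smallest value above 0 gave whole numbers for 100% of values (tolerance 0.01), so whole reads were recovered. The authors also deposited their own comparisons of the populations (fold changes and p-values), which were not used.

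Log2(normalized count + 1) was compared with limma 3.58.1 in R 4.3.3 (trended, two-sided, 1 coefficient per population) for genes averaging 5 normalized counts or more, and an adjusted p under 0.05 (Benjamini-Hochberg) was the threshold. Alternatives on whole reads were edgeR 4.0.16 and DESeq2 1.42.0. Further alternatives changed the pseudocount, filter, scaling, weights and libraries. Ratios of 2 genes were tested by exact permutation over libraries, adjusted over 15 tests. Methods were tested on simulated data. Exon lengths came from GENCODE M21 on GRCm38, which matched 99.6% of genes. Promoters are from RefSeq. The 6 members, all described, the pathway and marker lists and the 5 genes most like each member follow rules chosen with earlier results of these data known. Lists are given as counts, and genes that limma called in the pathway lists with all libraries are named. Genes called in the marker lists are named only in part.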

Additional observations from a re-analysis of the deposited data

Results flagged for a closer look

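In 33 groups of 5 libraries, 2 held a library far from the others by Dixon's criterion at the 95% level, and chance flags about 1 in 20 groups. Angpt4 in D was flagged for replicate 1, whose log2(normalized count + 1) was 4.43 against 0.83 in the next library and 0 in the lowest. This library held 15 Angpt4 reads, and 89.2% of olfactory receptor genes had a read in it. The log2 ratio of Tie1 to Cdh5 in TA was flagged for replicate 5, at -0.10 against -0.46 in the next library and -0.60 in the lowest. This library had the lowest Tie1, Ptprb, Angpt2 and Tek counts and the highest Angpt1 count of the 5 TA libraries. It also had the lowest pan-endothelial sum (8499) and the highest fibroblast (606223) and mural (157242) sums among them. The part of this in its ratios was not tested.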

How the results depend on the processing

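Between EVP and D, 5 members were called in all 27 alternatives. Between EVP and TA the count of 3 fell to 1 without replicate 1 of every population, and ranged from 2 to 4 when single libraries were left out. Between TA and D the count of 5 fell to 3 with quantile normalization, and ranged from 4 to 6 over single libraries left out. The cause was not tested. Angpt4 between EVP and TA changed sign to -0.32 without TA replicate 3, to -0.16 in edgeR and to -0.14 in DESeq2, ranged from -0.32 to 1.56 over single libraries left out, and passed in no setting.

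Without replicate 1 of every population, 4 libraries against 4 gave an adjusted p of 0.0612 for the ratios that passed with all libraries. Their differences were then 6.57 and 5.71 for Tek to Tie1 (EVP against D and against TA), 6.87 and 6.10 for Tek to Cdh5, and -11.84, -5.16 and -6.68 for Angpt2 to Angpt1 (EVP against D, EVP against TA, TA against D). Over single libraries left out, the TA against D differences ranged from -0.028 to 0.87 for Tek to Tie1 and from -0.17 to 0.83 for Tek to Cdh5, both lowest without TA replicate 5. Those of Tie1 to Cdh5 ranged from 0.11 to 0.88 for EVP against D and from 0.16 to 0.94 for EVP against TA, both highest, and past the threshold, without EVP replicate 2.

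The replicate block is a fit with the replicate number as a term. Deviations of same-numbered libraries correlated from -0.14 to 0.69, above 0.1 in 11 of 15 pairs, and 12 of 15 correlated best with their own number, the exceptions being replicate 3. Since not every pair was above 0.1 and the labels name no shared animal, the numbers were not taken to pair libraries, and the tally is a hint from the data. The replicate block raised the calls over all genes from 4859 to 5710, 893 to 1262 and 3199 to 4047. With it Tek passed between EVP and TA (adjusted p = 0.0441) and Angpt2 no longer passed between TA and D (0.0606). Sign flips of 5 paired differences cannot give a two-sided p under 0.05, and the ratios had an adjusted p of 0.134 in the replicate block, with unchanged differences of 6.43 and 5.95 for Tek to Tie1, 6.82 and 6.39 for Tek to Cdh5, and -11.78, -6.28 and -5.50 for Angpt2 to Angpt1. Low counts limit Angpt1 and Angpt4 in D and Tie1 in EVP replicate 2. In EVP replicate 1, Tie1 and Cdh5 lay below the median olfactory receptor gene of that library.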

Other observations

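Of 7 tip cell genes, which mark the leading cells of sprouts where Angpt2 is usually high, 6 (Pdgfb, Dll4, Kcne3, Esm1, Cxcr4 and Apln) were higher in D than in EVP. Of the 7, 5 were higher in TA than in EVP, beside 7.46% and 1.94% of all genes in those directions. The other gene, Adm, leaned towards EVP, by 0.71 against D and 1.16 against TA (adjusted p = 0.205 and 0.0840 in limma). DESeq2 called 1 of the 7 higher in EVP than in TA. Without the replicate 1 libraries 0 were called between EVP and TA in limma, with 6 higher in TA at an unadjusted p under 0.05. Summed normalized counts of the 7 were 71884 to 106133 in D, 4139 to 63542 in TA and 8497 to 23220 in EVP, where Adm alone held 6598 to 21862. Between TA and D, limma called 4 of the 7 higher in D, beside 4.31% of all genes. There DESeq2 called 3, edgeR 0 and limma without the replicate 1 libraries 3, with 5 at an unadjusted p under 0.05 in limma over all libraries. Of 4 lymphatic endothelial genes, Flt4 and Lyve1 were higher in D than in EVP, and Pdpn, which fibroblasts also express, was higher in EVP. Over all genes 7.46% and 11.6% were called in those directions, and Prox1 was not called.

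Summed normalized counts of 4 platelet and megakaryocyte genes were 386 to 659 in EVP, 742 to 2532 in TA and 517 to 795 in D. Ppbp and Pf4 were higher in TA and in D than in EVP, beside 1.94% and 7.46% of all genes, and neither was called without the replicate 1 libraries. Gp9 and Itga2b were not called by limma in these comparisons. Itga2b leaned the other way between EVP and D, with means of 278 and 138 and a log2 difference of 0.97 (unadjusted p = 0.0371, adjusted p = 0.145 in limma).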
